A study of Mus musculus with 18 samples.

Results

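The RNP fraction of mouse testes was compared between adults and 22-day-old animals. Of the 18 arrays of the series, 6 belong to this comparison, 3 from adult RNPs and 3 from 22-day RNPs, chosen by their labels alone. All 22626 of the 22690 probe sets that are not array controls were members, and differences are given as adult minus 22 days. Every group came from the outbred CD1 strain, and the labels name neither a treatment of the animals nor a genetic change nor the age of the adults. Cytoplasmic extract was spun through a sucrose gradient of 10 to 30% that was collected as 17 fractions. RNA of fractions 2 to 8 was pooled as the RNP sample, and RNA of fractions 11 to 17 as the polysome sample. The study asked which transcripts change their place between RNPs and polysomes as the testis matures.

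RNPs (ribonucleoprotein particles) are slowly sedimenting complexes of messenger RNA and protein that carry no or few ribosomes, while polysomes are messenger RNAs loaded with many ribosomes. In the testis, spermatids shut down transcription as their chromatin is compacted, so messages for late sperm proteins are made early and kept in RNPs until they are translated. In juvenile mice the first wave of spermatogenesis is still under way, with round spermatids the most advanced germ cells at about the younger age, whereas adult testes hold all stages up to elongated spermatids.

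Germ cell transcripts marked all 6 arrays. Ldhc, the lactate dehydrogenase subunit of meiotic and later germ cells, read 9075, 7949 and 8112 intensity units at 22 days and 8406, 10353 and 10131 in adults. Ybx2, the germ cell Y-box protein that binds stored messages, read 3488, 4055 and 4591 at 22 days and 5633, 3802 and 6696 in adults. Neither of these probe sets passed the test (adjusted p = 0.237 and 0.371), and the ages overlapped for both. The other Ldhc probe set was called higher in adults (0.53 ± 0.14, adjusted p = 0.0177), with 6327, 6455 and 6121 at 22 days and 8987, 10497 and 7952 in adults. All arrays had been scaled to the same mean, so each value is relative to the other transcripts of its fraction. In bulk RNA, more cells of a type and more RNA per cell cannot be told apart. The labels number the replicates as biological without naming separate animals, so each p-value reflects only the scatter among these extracts, some of which may be technical.

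The second 22-day array stood apart. It correlated with the adult RNP arrays at 0.829 to 0.844 across probe sets, while the other 22-day arrays did so at 0.883 to 0.921. It was the lowest of its group for 75.7% of the probe sets that were called higher in adults, and the highest for 76.4% of those called lower. On polysomes the same replicate number was also the lowest at 22 days for chromatin condensation genes, with a list median of -1.56 relative to the group mean on the log2 scale. Adult array 1 deviated from its group together with the second 17-day RNP array (correlation 0.408). Of 112 named probe sets called in RNPs, 37 lost the call without the second 22-day array and 19 without adult array 1.

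Values were tested as log2(value + 15) with limma, and a probe set counts as called at an adjusted p under 0.05. Fold changes are on this scale and understate the changes of low values. Of 14066 tested probe sets, 857 were higher in adult RNPs (6.09% of those tested) and 1111 were lower (7.90%). Rises were larger than falls: among called probe sets the median log2 difference was 1.39 for rises and -1.03 for falls. At least 4-fold differences were seen for 190 rises and 14 falls. The 3 adult arrays all lay above the 3 of 22 days for 825 of the called rises, and all below for 1056 of the called falls, against 12.0% and 20.4% of all tested probe sets in each order. Per gene, 601 of 8713 genes (6.90%) were higher and 654 (7.51%) lower, with a median difference of -0.12.

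Without the second 22-day array, 459 probe sets were higher and 207 lower. Without 22-day array 3 the falls numbered 696, and a fit to the 6 compared arrays alone gave 544 and 414. The balance between rises and falls moved both ways with the processing. Rises made up 43.5% of the calls on the authors' scale, 53.4% after quantile normalization and 47.0% after median centring. They made up 51.7% without the filter on low values but 38.2% with a stricter one, and 51.7% with a larger pseudocount but 37.4% with a pseudocount of 1. Leaving out the second 22-day array gave 68.9%, and leaving out 17-day array 2 and adult array 1 of both fractions gave 36.3%.

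**Figure D1:**
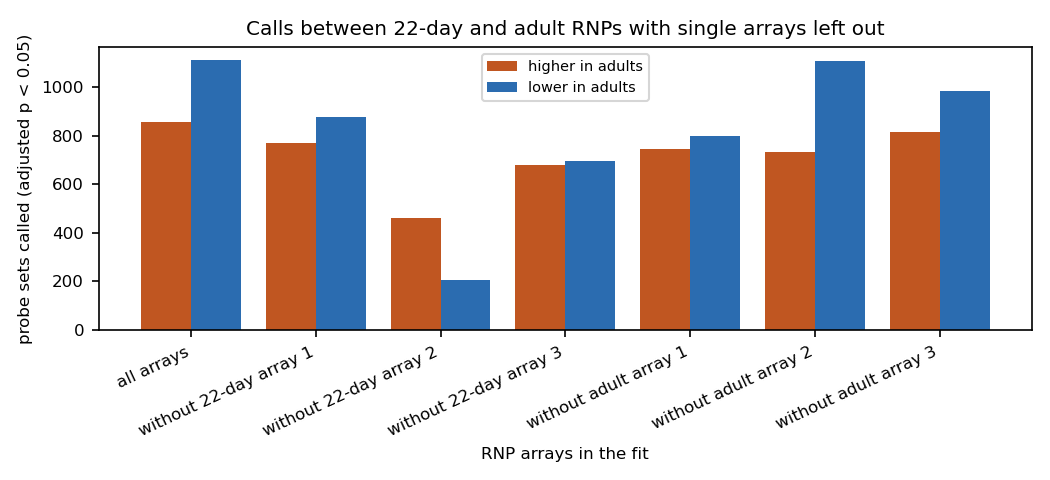
Number of probe sets called higher (orange) or lower (blue) in adult RNPs with all arrays and with each of the 6 compared RNP arrays left out. Leaving out the second 22-day array took the falls from 1111 to 207 and the rises from 857 to 459.

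Messages of the proteins that repackage sperm chromatin rose together. The list held transition proteins, which first displace histones, protamines, which then compact the DNA, and the spermatid linker histone Hils1. It also held Prm3, a gene of the protamine cluster that is not taken here to compact DNA. All 6 tested members were higher in adults, with a median log2 difference of 3.71 against -0.12 over all genes, and all 6 were called under every alternative setting. Prm1 (protamine 1) read 2960, 121 and 962 at 22 days and 9194, 11068 and 10670 in adults. The adult arrays all lay above the 22-day arrays, and the second 22-day array was by far the lowest. The difference was 14-fold (log2 3.81 ± 0.80 SE, adjusted p = 0.0045), and all 3 probe sets of Prm1 rose.

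Prm2 (protamine 2) went from 2073, 90.5 and 916 to 8577, 9394 and 10795, a 16.2-fold rise (4.02 ± 0.79, adjusted p = 0.0025). Tnp1 (transition protein 1) went from 1660, 76.1 and 727 to 4485, 6556 and 6967 (12.2-fold, adjusted p = 0.00523). Tnp2 (transition protein 2) went from 1483, 30.1 and 926 to 6130, 6363 and 7407 (16.6-fold, adjusted p = 0.00511). For these genes the ages did not overlap, the adult arrays lay close together, and the wide spread was within the 22-day group. Prm3, which lies in the protamine gene cluster, read 505, 212 and 386 at 22 days and 1981, 2384 and 3051 in adults (6.76-fold, 5.05e-05). Hils1 read 2359, 460.2 and 1426 at 22 days and 6504, 7030 and 4877 in adults (5.17-fold, adjusted p = 0.00296). The list median was 3.71 with all arrays and 2.45 without the second 22-day array. In 17-day RNPs, which share the 22-day arrays as their later group, the means of these 6 genes were 2.5 to 28.8 units, all below the filter value of 51.6.

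The promoter stretches of 4 of these genes are shown because the members rose together. They are the 120 bases before the RefSeq gene start (GRCm38.p6), 5′ to 3′ on the gene's strand. Capitals mark TGANGTCA, a relaxed form of the cAMP response element that was chosen after the sequences had been seen, or TATAAA, each searched on both strands.
Prm1, chr16:10796824-10796943, minus strand: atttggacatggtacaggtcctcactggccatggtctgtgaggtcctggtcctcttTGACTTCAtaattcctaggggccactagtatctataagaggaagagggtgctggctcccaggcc
Prm2, chr16:10792106-10792225, minus strand: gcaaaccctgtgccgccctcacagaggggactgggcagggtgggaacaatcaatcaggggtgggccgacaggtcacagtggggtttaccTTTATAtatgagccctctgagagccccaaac
Tnp1, chr1:73015900-73016019, minus strand: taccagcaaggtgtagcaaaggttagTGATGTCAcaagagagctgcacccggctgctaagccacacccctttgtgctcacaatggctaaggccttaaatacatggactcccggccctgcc
Tnp2, chr16:10788656-10788775, minus strand: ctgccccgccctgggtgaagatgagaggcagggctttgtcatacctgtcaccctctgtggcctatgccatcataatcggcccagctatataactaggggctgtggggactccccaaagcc

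Prm1 and Tnp1 held TGANGTCA in this stretch, 57 to 64 and 87 to 94 bases before the start, and on opposite strands. Over windows of 250 bases, TGANGTCA lay in 62 of 497 promoters of genes called higher (12.5%), in 32 of 534 of those called lower (5.99%) and in 6.03% of the 7093 tested genes with an entry. The strict form TGACGTCA did not follow the calls, at 3.02%, 3.18% and 2.86%, nor did its part TGACG, which overlaps it (26.2%, 28.7% and 27.6%). TATAAA lay in 8.45%, 5.06% and 6.49%, and ATTGG, the CCAAT box read on the other strand, in 35.0%, 39.5% and 36.4%. A match describes the letters in the window and is neither a bound site nor a cause.

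**Figure D2:**
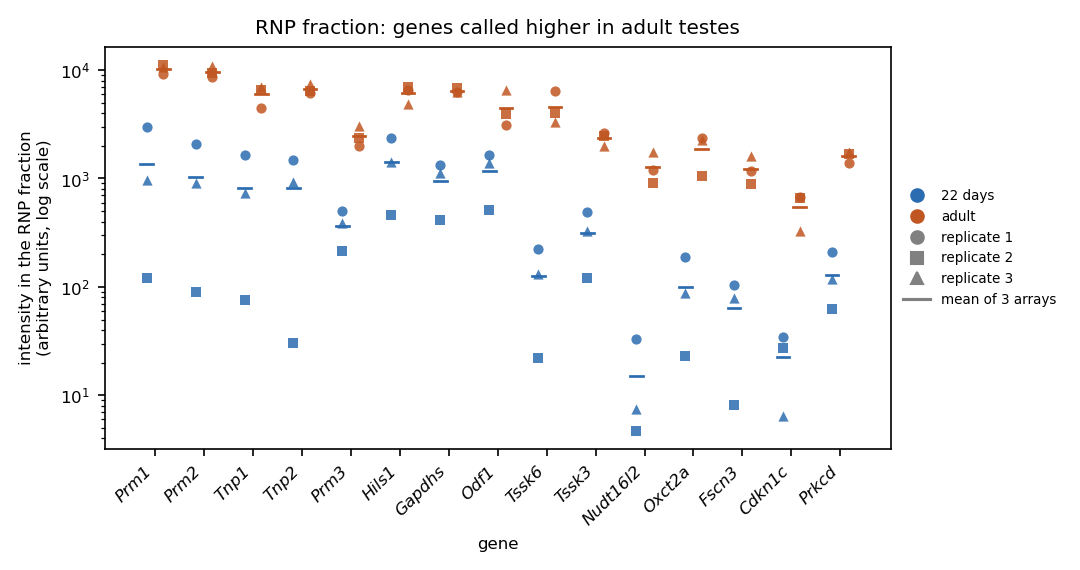
Intensity (log scale) in RNPs for 15 genes called higher in adults. Blue marks 22-day arrays, orange adult arrays, shapes the replicate number and lines the mean of 3 arrays. For all 15 genes the adult points lie above the 22-day points, and the blue squares of the second 22-day array are the lowest for all of them but Cdkn1c.

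The largest rises overall were in genes that were low at 22 days. Nudt16l2, which belongs to the Nudix hydrolase family by its name, read 33, 4.7 and 7.4 at 22 days and 1190, 917 and 1740 in adults. Its 45.3-fold difference was the largest among the named genes (5.50 ± 0.31, adjusted p = 8.08e-09). Tssk6, a testis-specific serine kinase needed for sperm chromatin and fertility, read 223, 21.9 and 133 at 22 days and 6433, 4057 and 3338 in adults (40.8-fold, 2.3e-06). Both genes were lowest in the second 22-day array. That all adult arrays lay above all 22-day arrays was a condition for naming the largest rises.

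Several other strong rises concern metabolism and the cytoskeleton. Oxct2a, the testis form of the enzyme that activates ketone bodies, read 187, 23.2 and 87.5 at 22 days and 2362, 1058 and 2245 in adults (19.4-fold, adjusted p = 6.69e-06). Fscn3, a fascin of the testis that bundles actin, read 104, 8.1 and 79.3 at 22 days and 1162, 892 and 1605 in adults (18.8-fold). Prkcd, protein kinase C delta, read 209, 61.9 and 118 at 22 days and 1381, 1687 and 1755 in adults (12.3-fold). The ages did not overlap for these 3 genes, which the choice of the 15 largest rises required. Glul, glutamine synthetase, was 21-fold higher by one probe set, from 264, 24.1 and 132 to 2394, 1787 and 3409, while its other probe set did not pass (-0.21). The remaining genes of the 15 largest rises were Cdrt4 (14-fold), 1700001C19Rik (13.6), the oxidative stress gene Osgin1 (13.2), the deubiquitinase Otub2 (12.1) and Cdkn1c, which is described with the polysome values. The other probe set of 1700001C19Rik did not pass (0.46), and that of Otub2 was called at only 0.84.

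Genes of the sperm tail rose less but in number. Of 20 tested members 10 were higher and 0 lower, with a median of 1.15, and 6 were higher without the second 22-day array. Gapdhs, the sperm form of glyceraldehyde phosphate dehydrogenase that is bound to the fibrous sheath, read 1341, 411 and 1117 at 22 days and 6264, 6794 and 6263 in adults (7.43-fold, 2.89 ± 0.36, adjusted p = 3.75e-05). Odf1, an outer dense fibre protein, read 1664, 510 and 1378 at 22 days and 3082, 3914 and 6541 in adults (4.02-fold, 0.00425). The adult arrays exceeded the 22-day arrays for both.

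Spata19, a mitochondrial protein of spermatids, was 4.4-fold higher, and Ropn1, a fibrous sheath protein, 4.21-fold. Smcp, the cysteine-rich protein of the mitochondrial capsule and a classic stored message, went from 1747, 907 and 1769 to 3682, 5005 and 6154 (3.41-fold, 0.00166). Akap4, the main fibrous sheath protein, had 3 tested probe sets, 2 of them called higher, with log2 differences of 1.28 to 1.98. The one used for the list read 790.4, 392 and 474 at 22 days and 686, 1719 and 2899 in adults. Its ages overlapped through adult array 1, and its 2.81-fold call (adjusted p = 0.0326) was lost without 22-day array 2 (0.158) or 3 (0.0903), without adult array 2 (0.077) or 3 (0.137), and after quantile normalization (0.0574). The other called members were Akap3, Catsper1, Odf3 and Spag4, at log2 1.27 to 1.90, of which all but Spag4 were lost without the second 22-day array and without adult array 3.

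Spermatid kinases and regulators went both ways, with 9 of 30 higher and 3 lower (median 0.01), and 6 and 2 without the second 22-day array. Kinases of the Tssk family, which act in spermatid elongation, were among the rises. Tssk3 read 496, 121 and 327 at 22 days and 2613, 2487 and 2010 in adults (8.24-fold, 3.04 ± 0.39, adjusted p = 4.43e-05). Tssk2 read 858, 273 and 568 at 22 days and 2641, 2681 and 2725 in adults (5.12-fold), and Tssk1 rose by log2 1.44 ± 0.31, a call that was lost without the second 22-day array (0.0513). Neither Tssk2 nor Tssk3 overlapped between ages, and the adult arrays of Tssk2 were nearly equal. Fhl5, a coactivator of the CREM factor that drives spermatid genes, rose 6.08-fold. The called falls were Gmcl1 (-1.73), the calcineurin subunit Ppp3cc (-1.04) and the ubiquitin ligase Rnf8 (-0.72), and the call of Rnf8 was lost without 22-day array 2 (0.164) or 3 (0.0798), without adult array 2 (0.0611) or 3 (0.106), and after quantile normalization (0.0658).

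The germ cell isozyme list held mainly forms of common enzymes and proteins that germ cells use in place of the somatic ones. It also held general genes such as Hk1 and Glul. Of its 20 tested members 6 were higher and 0 lower (median 0.28). Hk1 is counted again among somatic glycolysis genes, and Gapdhs was also counted among sperm tail genes. Hspa1l, a spermatid heat shock protein, read 251, 17.5 and 126 at 22 days and 1015, 1278 and 1396 in adults (11.6-fold, 3.53 ± 0.55, adjusted p = 0.000336). Capza3, an actin capping protein of sperm, rose 3.87-fold and Aldoart1, a sperm aldolase, 2.87-fold. In contrast Pgk2, the phosphoglycerate kinase of germ cells, read 1276, 1170 and 1246 at 22 days and 1027, 2234 and 2175 in adults and did not pass (0.47 ± 0.33, adjusted p = 0.354). Its ages overlapped through adult array 1, and it passed when adult array 1 and 17-day array 2 of both fractions were left out (adjusted p = 0.0203).

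Acrosome genes gave no common direction, with 3 of 23 higher, 2 lower and a median of -0.08. Actl7a, an actin-like protein of the spermatid head, rose 4.2-fold without overlap, from 936, 253 and 799 to 2461, 2171 and 2827. Tex101, a germ cell surface protein, fell 2.77-fold from 1398, 1287 and 1377 to 719, 376 and 403 (adjusted p = 0.0486). Acr, which encodes the acrosomal protease acrosin, had a difference of -0.09 ± 0.27 and overlapping ages (adjusted p = 0.864). Without the second 22-day array 1 gene was higher and 0 lower, and over all single arrays left out the counts were 1 to 3 and 0 to 1. The call of Tex101 was lost without any 22-day array and without adult array 2 or 3 (0.0996 to 0.135). Of 23 axoneme and flagellar transport genes, 1 was higher and 3 lower (median -0.41). The rise was in Ift172, an intraflagellar transport protein, from 739.8, 718 and 831 to 1953, 2037 and 1975 (2.58-fold, adjusted p = 4.55e-05), a tight step that did not rest on the second array. The falls in Kif3b, Rsph1 and Ift20 (1.85-, 1.64- and 1.55-fold) were lost without that array and also when either of adult arrays 1 and 2 was left out.

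**Figure D3:**
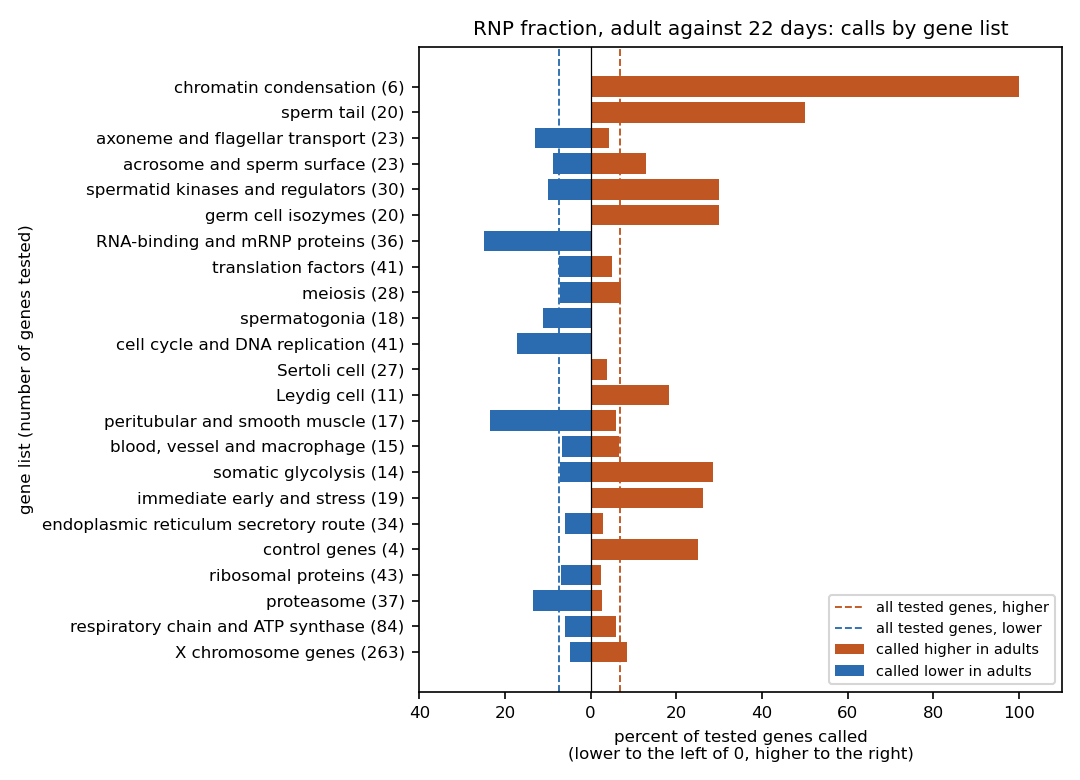
Percent of the tested genes of each list that were called higher (orange, right of 0) or lower (blue, left of 0) in adult RNPs, with 1 probe set per gene and the number of genes in brackets. Dashed lines give the same for all 8713 genes, 6.90% higher and 7.51% lower. Chromatin condensation (6 of 6) and sperm tail (10 of 20) genes lie far to the right, and RNA-binding genes (9 of 36, and 5 lower with 1 higher after quantile normalization) to the left.

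Among the called falls, 14 probe sets were at least 4-fold lower. Mta3, a subunit of the NuRD chromatin remodelling complex, read 137, 149 and 159 at 22 days and 31.3, 23.9 and 20.9 in adults. The spread was small in either group, and the fall was 4.06-fold (-2.02 ± 0.19, adjusted p = 2.3e-06). Ages that did not overlap were a condition for naming the largest falls. A second Mta3 probe set did not pass (0.08). Tpd52l2, a tumour protein D52 family member, fell 4.15-fold (from 65.6, 120 and 85 to 7.9, 16.2 and 6.3, adjusted p = 5.33e-06), but 2 other probe sets of it did not pass. Tnfaip1, an adaptor of a ubiquitin ligase, fell 4.37-fold from 84.8, 169.9 and 112 to 9.3, 13.8 and 25.1, with 2 of its 3 probe sets called. Zfp746, a zinc finger gene with 1 tested probe set, went from 177, 218 and 169.6 to 55.1, 20.8 and 22.4 (4.45-fold, adjusted p = 1.21e-05).

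The largest fall was that of Senp1, a protease that removes the SUMO modifier, from 469.9, 631 and 353 to 47.1, 50.1 and 221 (4.94-fold, -2.30 ± 0.42, adjusted p = 0.00134). Both of its probe sets fell. Oga, the enzyme that removes O-GlcNAc from proteins, fell 4.79-fold by 1 probe set while 3 others did not pass and ran up to 0.50. Mmd2, a membrane protein of the progestin receptor family, read 78.3, 243 and 91.8 at 22 days and 16.8, 11.6 and 14.1 in adults (4.71-fold, 0.000355), and its other probe set did not pass (-0.55). S100a10, an annexin-binding protein, fell 3.87-fold from 56.3, 108 and 46.2 to 8.3, 4.2 and 5.7, and its other probe set did not pass (-0.54). The ages did not overlap for Senp1, Mmd2 or S100a10, as their choice among the largest falls required.

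The genes Cdc42 and Gna13 were also among the 15 largest falls. Cdc42, a GTPase of cell polarity, read 122, 299 and 206 at 22 days and 22.3, 27.9 and 53.5 in adults (4.42-fold, adjusted p = 0.00103), with 3 of 4 probe sets called lower. Gna13, a G protein alpha subunit, fell 3.9-fold by one probe set, with 2 of 6 probe sets called and the rest running up to 0.75. The others were Ccdc117 (4.28-fold), Cnmd (4.02), the Golgi protein gene Golga4 (3.97) and the kinase gene Pim3 (3.92), whose call was lost without 22-day array 1 (0.0652) or 2 (0.096) and without adult array 2 (0.0609) or 3 (0.117). The other probe sets of Ccdc117 (-0.76) and Pim3 (-0.68) did not pass, and 2 of the 3 of Golga4 were called lower. The remaining gene of the 15 is Dazl.

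RNA-binding and mRNP proteins, the proteins that hold, silence or activate stored messages, were lower for 9 of 36 and higher for 0, with a median of -0.45. Quantile normalization gave 5 lower and 1 higher (median -0.41) and median centring 6 and 1 (-0.42), the rise in both being that of Fmr1, which encodes the fragile X RNA-binding protein (0.77 and 0.71). Dazl, a translation regulator of germ cells, read 230, 406 and 237 at 22 days and 61.3, 80.2 and 23.4 in adults by one probe set (4.53-fold, -2.18 ± 0.36, adjusted p = 0.000645). The other Dazl probe set fell 2.11-fold, from 348, 465 and 259 to 173, 180.1 and 124, but this call was lost without the second 22-day array (0.0923) and after quantile normalization (0.0517). Neither probe set overlapped between the ages, which for the first was a condition of its choice. Ddx6, a helicase of translation repression and RNA granules, went from 221, 342 and 434 to 142, 80.1 and 124 (2.63-fold, 0.00186), and Piwil2, a piRNA-binding protein, from 472, 599 and 519 to 274, 293 and 180.2 (2.1-fold, 0.00499).

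Cpeb2, a cytoplasmic polyadenylation factor, fell 2.28-fold, a call that was also lost without that array (0.0648). The other called members were Celf1, Khdrbs3, Lsm14b, Tsnax and Piwil1, the second piRNA-binding protein of the list, at log2 -0.61 to -1.05. The calls of Lsm14b, Tsnax and Piwil1 were lost under both other scalings. Without the second 22-day array 3 of the 36 were lower, namely Ddx6, Piwil2 and Khdrbs3. On polysomes, where 5.65% of genes were higher and 1.81% lower, 0 of the 36 were called in either direction, with a median of -0.36. The RNP change minus the polysome change was called for 0 of the 36, with or without pairing of same-numbered arrays (median -0.19). Whether the list differed between fractions was not tested as a list.

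**Figure D4:**
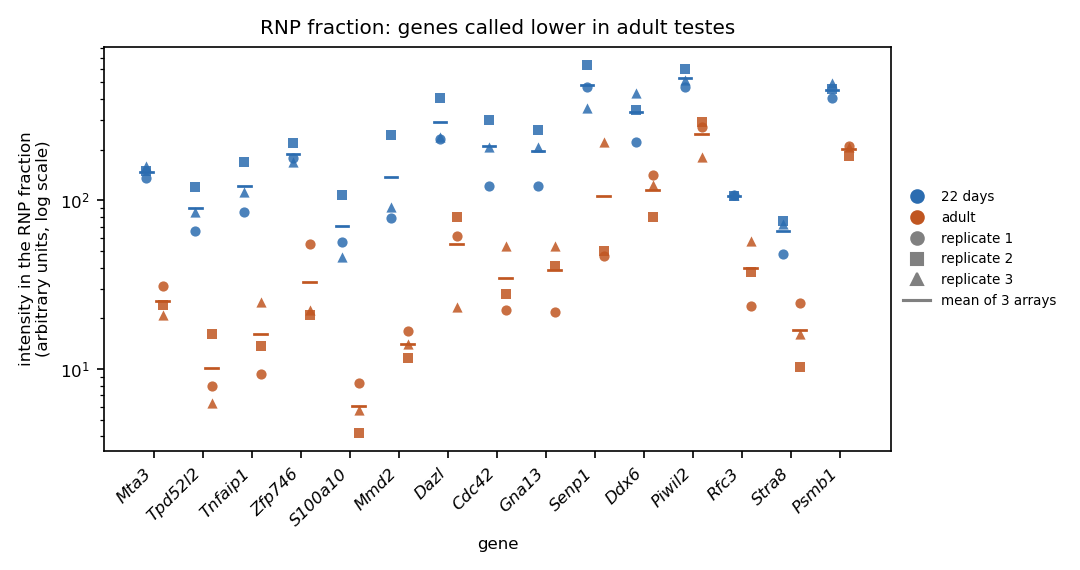
Intensity (log scale) in RNPs for 15 genes called lower in adults, drawn as for the rises, with blue for 22 days and orange for adults. The adult points lie below the 22-day points for all 15 genes, and the second 22-day array (blue squares) is often the highest.

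Cell cycle and DNA replication genes, which are used in dividing spermatogonia and in spermatocytes before meiosis, were lower for 7 of 41 and higher for 0 (median -0.23). Rfc3, a subunit of the clamp loader, read 108, 106 and 107 at 22 days and 23.7, 37.7 and 57.8 in adults (2.3-fold, -1.20 ± 0.23, adjusted p = 0.00245). Mcm6, a replicative helicase subunit, fell 2.98-fold and Rrm1, the large subunit of ribonucleotide reductase, 2.64-fold, each by 1 of 2 probe sets. The other probe sets did not pass (-0.21 and -0.55). The calls of both Mcm6 (0.0552) and Rrm1 (0.0917) were lost without adult array 1. Bub1b, Ccne2, Cdk4 and Rfc1 made up the rest. Without the second 22-day array Rfc3 alone was lower, and 4 genes were without adult array 2.

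Among spermatogonial genes, 2 of 18 were lower (11.1%, against 7.51% of all tested genes). Stra8, which is needed to enter meiosis, fell 2.52-fold from 48, 75.7 and 72.7 to 24.6, 10.3 and 16.2 (adjusted p = 0.000976). Dnmt3b, a DNA methyltransferase, fell 1.71-fold, while its other probe set did not pass (-0.09). The Dnmt3b call was lost without 22-day array 2 (0.104) or 3 (0.0952) and without adult array 1 (0.0694) or 3 (0.0708). Meiosis genes were near the background, with 2 of 28 higher and 2 lower (7.14% each, against 6.90% and 7.51% of all tested genes). Syce2, a central element protein of the synaptonemal complex, rose 3.85-fold from 1042, 717 and 776 to 2999, 4126 and 2791 (1.95 ± 0.21, adjusted p = 6.95e-06). Rec8, the meiotic cohesin, rose 2.64-fold from 74, 56 and 42.4 to 215, 191 and 127. Neither gene overlapped between ages. The falls were Tex12 (1.99-fold) and Mlh3 (1.77-fold), and both were lost without 22-day array 2 or 3, Tex12 also without 22-day array 1 (0.0918) or adult array 3 (0.173) and Mlh3 without adult array 2 (0.0643). Sycp3, an axial element protein of the synaptonemal complex, did not pass (-0.53 ± 0.25, adjusted p = 0.158), nor did Hspa2, the heat shock protein of spermatocytes (0.08 ± 0.30).

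Markers of the somatic cells of the testis gave few calls. Of 27 Sertoli cell genes 1 was higher (Ptgds) and 0 lower, with a summed level of 2271 to 3582 at 22 days and 1585 to 3636 in adults. Amh, the anti-Müllerian hormone of young Sertoli cells, was at 8.4 to 52.8 on all 6 arrays. Of 11 Leydig cell genes 2 were higher, the steroid enzyme Hsd17b3 (2.4-fold) and the lipoprotein receptor Scarb1 (2.34-fold), with summed levels of 2390 to 2592 and 2278 to 3526. Of the 3 probe sets of Scarb1 only 1 was called (log2 0.84 to 1.38 over the 3). Cyp11a1, the first enzyme of steroid synthesis, stayed at 2.1 to 47.7 (adjusted p = 0.92). Both Leydig calls were lost without 22-day array 1, adult array 1 or adult array 3, that of Hsd17b3 also without 22-day array 2 (0.151) and that of Scarb1 without 22-day array 3 (0.0847).

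Peritubular and smooth muscle genes were lower for 4 of 17 (Col4a1, Myl9, Mylk and Tpm1) and higher for 1, with sums of 1751 to 2557 and 2288 to 2466. Tpm1, a tropomyosin, read 30.9, 118 and 50.5 at 22 days and 2.9, 3.2 and 19.7 in adults (3.28-fold, 0.00989). The other probe sets of Tpm1 (-0.58) and Col4a1 (-0.39) did not pass. All 4 falls were lost without the second 22-day array, that of Myl9 also without adult array 2 (0.0699) and that of Mylk without adult array 1 (0.0769) or 3 (0.121). The rise was in Actg2, a smooth muscle actin by name, from 416, 117 and 290.4 to 724, 1009 and 1315 (3.87-fold). Of 15 blood, vessel and macrophage genes, C1qb, a complement component of macrophages, rose 4.15-fold from 16.8, 28.9 and 25 to 258, 101 and 111, and Hbb-b2, a beta globin, was 2.09-fold lower, a call that was lost without 22-day array 2 or 3 or any adult array (0.0634 to 0.226). Their sums were 865 to 979 and 1005 to 1408. Clu, which encodes clusterin, a Sertoli cell product, did not pass (0.33 ± 0.59). The part of these somatic cell markers in the other changes was not tested.

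Genes of general cell functions mostly lay near the background. Ribosomal protein genes were higher for 1 of 43 and lower for 3 (median -0.01), and after quantile normalization higher for 0 and lower for 6 (median -0.24). Rps4x fell 2.65-fold. Rpl39l, the testis form of a large subunit protein, was called 1.41-fold higher, and this call was lost after quantile normalization (0.285), without 22-day array 2 (0.142) or 3 (0.0589) and without adult array 1 (0.0517) or 2 (0.0775). Respiratory chain and ATP synthase genes gave 5 higher and 5 lower of 84, secretory route genes 1 and 2 of 34, and translation factors 2 and 3 of 41. With single arrays left out these counts ran from 1 to 8 and 0 to 8 for the respiratory chain, from 0 to 4 and 1 to 4 for ribosomal proteins, from 1 to 2 and 0 to 2 for the secretory route and from 2 to 3 and 0 to 4 for translation factors. After quantile normalization they were 3 and 3 for the respiratory chain, 3 and 1 for the secretory route and 2 and 1 for translation factors. X chromosome genes, which are silenced in meiosis, gave 22 higher (8.37%) and 13 lower (4.94%) of 263, and 13 and 3 without the second 22-day array, with 8 lower without adult array 3. With adult array 1 and 17-day array 2 of both fractions left out, the lower calls numbered 25 among X chromosome, 11 among cell cycle, 8 among respiratory chain and 5 among ribosomal protein genes, 4 in each of the spermatogonial, meiosis and secretory route lists and 3 among Sertoli cell genes. H2ap, the largest of the X chromosome rises, went from 214, 36.1 and 200 to 890.3, 1234 and 1216 (8.2-fold).

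Some of these lists held single strong changes. Eif1ax, an initiation factor, rose 3.38-fold from 224, 167 and 156 to 636, 1012 and 418, and Eef1d, an elongation factor subunit, 2.79-fold. Proteasome genes were lower for 5 of 37 and higher for 1 (3, 1 and 2 lower without 22-day arrays 1, 2 and 3, 2 and 8 lower without adult arrays 1 and 3, and 2 lower after quantile normalization). Psmb1, a core subunit, fell 2.16-fold from 406, 459 and 493 to 211, 184 and 208 (adjusted p = 0.000324), though its other probe set did not pass (0.11). Psma6 rose 2.6-fold by 1 probe set, and all 3 of its probe sets were called higher (log2 1.13 to 1.38). Psma8, the testis-specific core subunit, fell 2.57-fold, and this call was lost without any 1 of the 22-day arrays (0.056 to 0.104) and without adult array 1 (0.137).

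Somatic glycolysis genes were higher for 4 of 14 (28.6%) and lower for 1 (7.14%), against 6.90% and 7.51% of all tested genes. The list median was 0.07. Pkm, pyruvate kinase, read 107, 82.2 and 108 at 22 days and 663, 405 and 649 in adults (5.06-fold, 2.34 ± 0.25, adjusted p = 7.4e-06). Hk1, hexokinase 1, rose 2.49-fold, and Aldoa and Tpi1 2.27- and 2.11-fold, with the call of Aldoa lost without the second 22-day array (0.0619). Immediate early and stress genes respond quickly to handling as well as to signals, and 11 of the 19 tested lay below 0 (median -0.03). By the test 5 of them were higher and 0 lower (26.3% and 0%, against 6.90% and 7.51% of all tested genes). They were Nr4a1, an orphan nuclear receptor (207, 160.3 and 182 at 22 days and 799, 502 and 815 in adults, 3.57-fold, adjusted p = 5.05e-05), the phosphatase gene Dusp1 (3.79-fold), Jund (2.96), Klf4 (1.98) and Hspa1a. The calls of Klf4 and Hspa1a were lost without the second 22-day array (0.145 and 0.178), that of Klf4 also without 22-day array 3 (0.0835), that of Hspa1a without 22-day array 1 (0.0834) or adult array 1 (0.151), and both without adult array 2 (0.111 and 0.0747). Actb, beta-actin, often used as a control, was 1.66-fold higher in adults without overlap (4004, 3578 and 2993 against 5860, 5240 and 6475) by one probe set, while its other probe set did not pass (0.12 ± 0.28, adjusted p = 0.816).

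The change in RNPs was set against that on polysomes. The polysome arrays are other arrays, but same-numbered ones may share an extract with the RNP arrays. Calls shared by the fractions may therefore not be independent. On polysomes 685 probe sets were higher in adults (4.87%) and 328 lower (2.33%). Of the probe sets that rose in RNPs, 56.4% also rose on polysomes, and these made up 70.5% of the polysome rises. Of those that fell in RNPs 12.2% also fell on polysomes, which was 41.5% of the polysome falls. The difference between the 2 changes passed the test for 16 probe sets (0.114% of those tested), 5 with the larger value in RNPs and 11 on polysomes, and 783 had an unadjusted p under 0.05. Same-numbered RNP and polysome arrays of an age deviated together, so a fit with each pair as a block was also run. This pairing was taken from these data and is not stated by the labels. The blocked fit called 130 probe sets (0.924%), 27 higher and 103 lower, and included all 16.

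Several transcripts of sperm nuclear and tail proteins rose less in RNPs than on polysomes in the blocked fit. Prm2 rose by log2 4.02 in RNPs and 6.23 on polysomes, where it went from 298, 22.9 and 99.5 to 8422, 9426 and 7152. The difference of -2.21 had an adjusted p of 0.909 without the block and 0.00996 with it. Adult Prm2 values were similar in RNPs (8577, 9394 and 10795), while the younger means were 1026 in RNPs and 140 on polysomes. The difference of Prm2 thus lay mainly in the younger group. Array maxima were 7933 to 10117 on adult polysomes, where Prm1 held the highest, and 11440.5 to 12560 in adult RNPs. Whether values this high were limited by the range of the arrays was not tested. Odf1 rose by 2.01 and by 4.67 on polysomes (246, 65.6 and 110 to 2642, 3852 and 4235), and its difference of -2.66 passed with the block (0.000671) but not without it (0.139). Of the 6 chromatin condensation genes 5 were lower in this contrast with the block and 0 without it, against 0.815% and 0.103% of all tested genes, and the median was -1.86. Tnp2 was the exception (-1.21, adjusted p = 0.314 with the block).

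The same held for 5 of 20 sperm tail genes and 5 of 20 germ cell isozymes, with Gapdhs in both counts, again 0 without the block. Pgk2, whose RNP level was not called with all arrays, rose on polysomes from 243, 142 and 163 to 649, 1578 and 1352, with a difference of -2.08 (adjusted p = 0.143 without and 0.00223 with the block). The 2 largest rises in RNPs did not follow this direction. Nudt16l2 rose by 5.50 in RNPs and 4.30 on polysomes (difference 1.20 ± 0.44, adjusted p = 0.745 without and 0.187 with the block), and Tssk6 by 5.35 and 4.80 (0.55, adjusted p = 0.998 and 0.509).

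A few genes changed by more in RNPs than on polysomes. Cdkn1c, an inhibitor of cyclin-dependent kinases, read 34.4, 27.4 and 6.4 in 22-day RNPs and 669.6, 657 and 325 in adult RNPs (15.2-fold). Its polysome values were 73.5, 71.5 and 58.2 at 22 days and 144, 89.1 and 77.1 in adults. The adult RNP arrays thus stood above every other array, and the difference of the changes was 3.44 ± 0.51 (adjusted p = 0.00778 without and 0.000271 with the block). Nqo2, a quinone reductase, rose in RNPs from 40, 35.5 and 36.6 to 248, 440 and 439, and on polysomes from 69.8, 60.5 and 68.1 to 116, 151 and 177. It was called higher in both fractions (log2 2.85 in RNPs and 0.99 on polysomes), and its difference was 1.86 ± 0.32 (adjusted p = 0.021 without and 0.00246 with the block). The difference of Pkm was 2.06 ± 0.36, with the same adjusted p-values.

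Mta3 fell in RNPs by 2.02 and had a polysome difference of -0.03, with means of 173 and 169 there, and the changes differed by -1.99 ± 0.26 (adjusted p = 0.00265 without and 0.00128 with the block). Mmd2 had polysome means of 301 and 328, and its difference of -2.32 passed with the block (0.00265) but not without it (0.113). The calls for Cdkn1c and Mta3 held in all 25 settings that were run on this contrast, while those for Nqo2 and Pkm were lost in 8 and 9 of them.

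**Figure D5:**
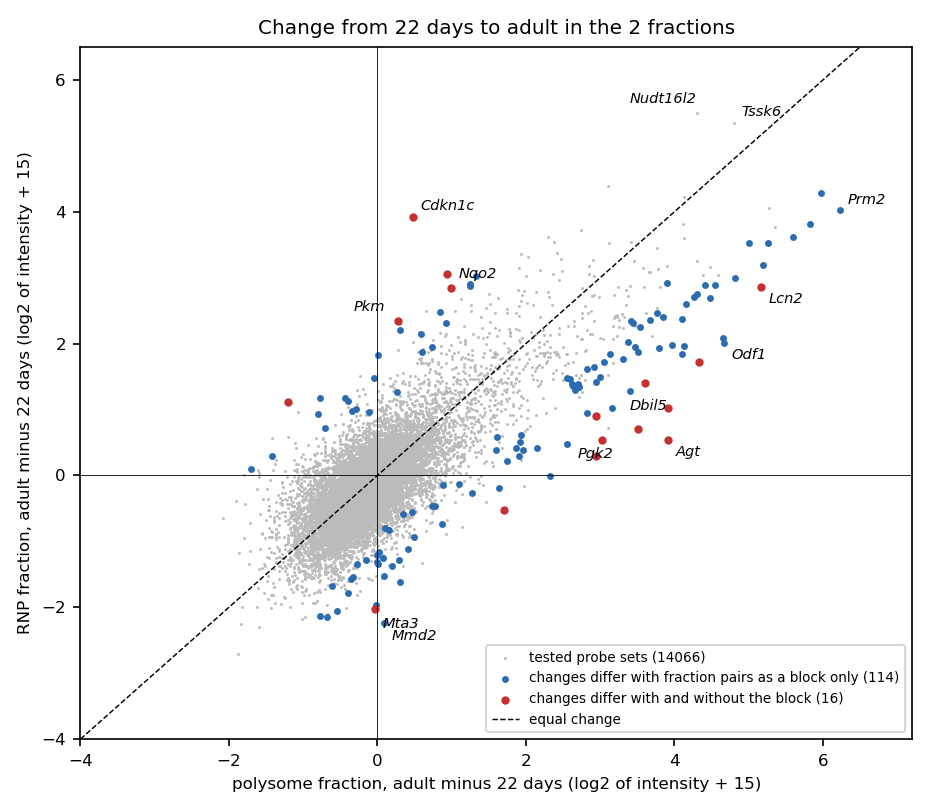
Adult minus 22-day difference (log2 of intensity + 15) on polysomes (x axis) and in RNPs (y axis) for the 14066 tested probe sets (grey), with an equal change on the dashed line. Red marks the 16 probe sets whose changes differed with and without the fraction pairs as a block, and blue the 114 that differed only with it. Prm2, Odf1 and Pgk2 lie below the line, and Cdkn1c, Nqo2 and Pkm above it.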

How the data were processed

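The deposited values are linear intensities that the authors made with MAS5, per the submitters' processing notes, which give no version. Each array's mean, trimmed by 2% at either end, was 150 to 150.1, so the values were already scaled and were used as deposited. Arrays measured biotin-labelled cRNA from 3 RNP samples per age.

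Probe sets with at least 3 of 18 arrays above 51.6 (the 50th percentile) were tested, which left 14066, of which 12972 named 1 gene, for 8713 genes. The platform annotation gave 1 symbol for 20393 probe sets, several for 691 and none for 1606, and 20364 were found by Entrez ID in RefSeq GRCm38.p6. All 18 arrays entered 1 limma model (3.58.1, R 4.3.3) of log2(value + 15) with 6 groups and a variance trend (12 residual and 6.51 prior degrees of freedom). The two-sided p-values were adjusted over all tested probe sets (Benjamini-Hochberg). Errors are limma standard errors with n = 3 arrays per group, and the number of arrays limits the precision. The script was tested on simulated data.

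Named were the 15 largest rises and falls whose arrays did not overlap, the 4 largest calls of each list, a set of 18 testis and control genes, and up to 8 calls either way in the contrast of fractions. Other genes printed were chosen after their values were seen. Lists took 1 probe set per gene, that with the highest mean. Members and lists were chosen with earlier results of these data known. Deviations of same-numbered RNP and polysome arrays from their group means correlated at 0.197 to 0.345 at 22 days and 0.461 to 0.585 in adults. Numbers were therefore taken to pair fractions within an age, which the labels do not state. Differently numbered arrays of the 2 fractions were not compared, so these values alone cannot settle the pairing. Deviations of adult RNP array 1 and 17-day RNP array 2, with different numbers, correlated at 0.408. Those of same-numbered RNP arrays of both ages correlated at -0.0889 to 0.241, and numbers were not taken to pair ages. Alternatives were another scaling, pseudocount, filter and block, and single arrays left out.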

Additional observations from a re-analysis of the deposited data

Results flagged for a closer look

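For 13 probe sets that name 1 gene, the change from 22 days to adult differed between RNPs and polysomes by limma's test of the difference itself. Values are the RNP change minus the polysome change, on the log2 scale. All 13 also passed with the fraction pairs as a block (adjusted p = 0.000271 to 0.0214). Without the third 22-day RNP array 10 of the 13 calls were lost, leaving Cdkn1c, Mta3 and the Ptgds probe set at -2.89. Above 0 lay Cdkn1c at 3.44 ± 0.51 SE (adjusted p = 0.00778), Pkm at 2.06 ± 0.36 (0.021) and Nqo2 at 1.86 ± 0.32 (0.021), all of which rose in RNPs. Mta3, at -1.99 ± 0.26 (0.00265), fell in RNPs and had a polysome change of -0.03.

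The others rose on polysomes by more than in RNPs. Agt, which encodes angiotensinogen, had the widest difference, at -3.38 ± 0.54 (adjusted p = 0.0115). It read 9.4, 6.5 and 6.6 in 22-day RNPs and 32, 13.7 and 10.9 in adult RNPs, and on polysomes it went from 12.7, 17.5 and 5.5 to 329.9, 406 and 426. This call was lost with a pseudocount of 1 (0.207). Both probe sets of Ptgds, a prostaglandin synthase that is secreted in the male tract, were lower in this contrast, at -2.61 (0.0115) and -2.89 (0.00265). Apoc1, an apolipoprotein, was at -2.65 (0.0175), with RNP values of 52.7, 23.4 and 58.5 against 55, 67.5 and 46.2, and its call was lost in 5 of 25 settings. Lcn2, a secreted lipocalin, was at -2.31 (0.0222), though it rose in RNPs too, from 1.3, 7 and 1.5 to 200.1, 72.9 and 106. On polysomes Lcn2 went from 31.8, 12 and 15 to 1139, 1008 and 1493. The call for the difference was lost in 11 of 25 settings, among them a pseudocount of 1 (-0.96, adjusted p = 0.987), the stricter filter (0.0941) and leaving out the second 22-day RNP array (0.0671). Dbil5, a diazepam binding inhibitor-like protein of spermatids, was at -2.20 (0.0113) and read 1510, 994 and 1380 in 22-day RNPs and 2660, 3927 and 3696 in adult RNPs. The other Dbil5 probe set was not called in RNPs (0.33).

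The kallikreins Klk1b27, Klk1b21 and Klk1b24 were at -2.79, -2.51 and -2.05 (adjusted p = 0.0222 for each). Each of these calls was lost in 10 of 25 settings, with adjusted p of 0.702, 0.119 and 0.0688 under a pseudocount of 1 and 0.196, 0.0634 and 0.0634 with the stricter filter. These genes are near-identical paralogs, so their probe sets may not separate them and the values are uncertain as to the gene. Klk1b27 and Klk1b21 were highest of the RNP arrays in adult array 1 (47 and 87.1). The same array was the highest of the RNP arrays for Agt, for Lcn2 and for Klk1b24, and for both probe sets of Ptgds (382 and 103). Without this array all 13 differences were still called. With adult array 1 and 17-day array 2 of both fractions left out, the calls of Apoc1 (0.0643) and Pkm (0.0987) were lost.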

How the results depend on the processing

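In RNPs, the 857 rises and 1111 falls (1968 in all) became 544 and 414 (958) with only the compared arrays. With single RNP arrays left out, they ran from 459 to 816 rises, 207 to 1108 falls and 666 to 1841 calls in all, lowest without the second 22-day array. The replicate number as a block gave 884 and 1270 (2154), and the fraction pairs as a random block 815 and 1107. For the difference between the fractions, the 5 higher and 11 lower calls (16) became 24 lower of 30 under quantile normalization, 18 lower of 25 without the filter, 7 lower with the filter at the 75th percentile, 8 higher with the pseudocount at the 50th percentile, and 1 and 6 (7) with only the compared arrays. Without 17-day replicate 2 and adult replicate 1 of both fractions, 18 were lower, and without 22-day replicate 2 of both, 1 was higher. Single arrays left out gave 1 to 8 higher, 3 to 18 lower and 4 to 26 in all. The pairing of fractions as a block gave 43 and 80 (123) as a random and 27 and 103 (130) as a fixed term. The cause was not tested.

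Of 112 named probe sets called in RNPs, 72 were called under every setting run on them, 37 lost the call without the second 22-day array, 26 with only the compared arrays, and 0 changed sign. Genes that had not been called turned sign. Over single arrays left out Acr ran from -0.46 to 0.17, Clu from -0.17 to 0.97, Cyp11a1 from -0.67 to 0.26 and Hspa2 from -0.26 to 0.32. Acr was 0.01 without 22-day replicate 3, 0.03 without adult replicate 1 (also with 17-day replicate 2 out) and 0.17 without adult replicate 2. Clu was -0.17 in both settings without adult replicate 1. Cyp11a1 was 0.21, 0.26 and 0.13 without 22-day replicate 2 and adult replicates 2 and 3. Hspa2 was -0.03 and Ldhc -0.23 under quantile normalization, and Hspa2 -0.01, -0.07 and -0.26 without 22-day replicates 1 and 2 and adult replicate 3. The median of all probe sets was -0.15, and -0.11 and -0.12 under quantile normalization and median centring. Values near 15 units carry little information on fold.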
